A study of Mus musculus with 2 samples.

Results

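The genes described here encode the enzymes and complexes that set histone acetylation and move nucleosomes: 54 mouse genes, taken by name and placed in 7 classes, of which 20 had at least 1 peak of a Rac1 antibody in the mouse retina. They comprise 9 acetyltransferases, 10 deacetylases, 5 bromodomain readers, 11 SWI/SNF subunits, 8 CHD remodellers, 6 genes of the INO80, ISWI and other remodellers, and 5 corepressors. A peak belonged to a member when the authors' annotation gave it that gene's name, which yielded 35 of the 4789 peaks in the series: 20 of 3078 in the control list and 15 of 1711 in the list from chronic ocular hypertension (COH). The members were not chosen on these values, but they were proposed with earlier results of the same lists known.

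The series holds 2 CUT&Tag libraries of retinal nuclei, an assay in which an antibody bound to chromatin guides the Tn5 transposase to insert sequencing adapters at the bound sites. Both were made with the same Rac1 antibody from retinas of wild type C57BL/6 mice 7 weeks old. The control retina had no treatment, and the other came from eyes with COH, a glaucoma model, at 1 week. Rac1 is a small GTPase best known for its control of actin, and the stated aim was to find genes and transcription factors related to it. With 1 library per condition there was no spread between replicates and no test between the conditions, and how many animals gave each library is not stated in the labels. Only peaks that passed the caller's threshold are listed, and lack of a peak does not show lack of binding. Each fold below is the fold enrichment over background that the authors' peak caller gave that peak, and each pileup is its read depth in the same list, with no stated scaling between libraries. The -log10 q is the negative log10 of the caller's q value, and rank 1 is the highest fold of a list. No library with a control antibody was analysed here, and the number of reads is unknown. A peak of this antibody is not a measure of expression, and the lists do not serve to check the tissue. Of 46 marker genes of retinal cell types, peaks were assigned to 5 in control and to 2 in COH. Among all protein-coding genes the shares were 10.8% in control and 5.38% in COH. By cell type the counts ran from 0 of 9 for rods in either list to 2 of 5 for amacrine cells in control.

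Acetyltransferases add acetyl groups to histone tails, which loosens chromatin and recruits bromodomain proteins that read the mark, and deacetylases remove them, usually within corepressor complexes. Remodellers of the SWI/SNF, CHD, ISWI and INO80 families use ATP to slide, evict or exchange nucleosomes. In neurons, deacetylases and acetyltransferases are known as regulators of activity-dependent transcription and of survival and axon regrowth after injury.

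Overlapping promoter peaks in both lists were found for 5 members: Ep300, Smarca4, Crebbp, Brd2 and Kat6a. Promoter sequences of 4 of them were in the RefSeq table (build GRCm38.p6), and they are shown because these genes had promoter peaks in both lists. Each runs 5′ to 3′ on the gene's strand, with matches of the searched motifs in capitals. For Ep300 the stretch is chr15:81585964-81586208 on the plus strand, bases -250 to -6 from the RefSeq start, and for Smarca4 chr9:21615919-21616105 on the plus strand, bases -250 to -64. Both stop where the gene's own span begins in the RefSeq table. For Crebbp (chr16:4213405-4213434, minus strand) and Brd2 (chr17:34122608-34122637, minus strand, the first of 3 starts) only the last 30 bases before the start are given. There, most of the 250 bases before the start lie inside the gene's own span, and so do the 30 bases shown.
Ep300: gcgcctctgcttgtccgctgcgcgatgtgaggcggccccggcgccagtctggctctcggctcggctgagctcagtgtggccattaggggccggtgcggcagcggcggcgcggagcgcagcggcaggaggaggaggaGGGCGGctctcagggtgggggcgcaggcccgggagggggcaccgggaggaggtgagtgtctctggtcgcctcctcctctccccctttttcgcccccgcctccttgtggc
Smarca4: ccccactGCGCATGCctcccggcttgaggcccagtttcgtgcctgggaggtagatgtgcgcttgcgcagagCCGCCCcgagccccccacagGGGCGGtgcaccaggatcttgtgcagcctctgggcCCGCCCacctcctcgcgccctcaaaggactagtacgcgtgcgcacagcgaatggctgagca
Crebbp: gccggGGGCGGGCGGtgagcgctgcggggc
Brd2: caggcacacccttGCGCATGCGCtatgtgt
In Ep300 the capitals mark a GC box (GGGCGG, the sequence that Sp1-type factors bind) at -114 to -109. The Smarca4 stretch had 3 GC boxes and, at -243 to -236, the core of the NRF1 motif (GCGCATGC). A second core, on the other strand at -66 to -59, runs past the end of that stretch. The Crebbp stretch held 2 overlapping GC boxes. The Brd2 stretch held the NRF1 core on both strands at -17 to -8, 2 overlapping matches. An ETS motif (CCGGAAG) at -203 to -197 of Brd2 lies outside the bases shown. A match is a match of letters, and the RefSeq start need not be the start used in the peak lists, so these windows are not shown to lie under the peaks.

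In control, 18 of the 54 members had a peak (33.3%, exact 95% interval 21.1 to 47.5), and in COH 12 had one (22.2%, 12 to 35.6). Among all 21900 protein-coding genes of the RefSeq table, the shares were 10.8% for control and 5.38% for COH. In both lists, 10 members had a peak, against 3.53% of protein-coding genes. These members were Crebbp, Ep300, Kat6a, Kat6b, Hdac4, Brd2, Arid1a, Smarca4, Chd4 and Chd9. In control only, 8 had a peak: Kat5, Hdac2, Hdac7, Chd6, Chd8, Ep400, Ino80 and Sin3a. Smarca2 and Chd2 were the 2 members in COH only. Of the 18 control members, 10 also had a COH peak (55.6%, 30.8 to 78.5), against 32.7% of all protein-coding genes with a control peak. Of the 12 COH members, 10 also had a control peak (83.3%, 51.6 to 97.9), against 65.5%. The control list is the longer one. When it was cut to its 1711 strongest peaks by fold, as many as the COH list holds, 11 members kept a peak in it against 12 in COH, and 6 had both. The shares of all protein-coding genes at that length were 5.87% in control and 5.38% in COH.

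**Figure D1:**
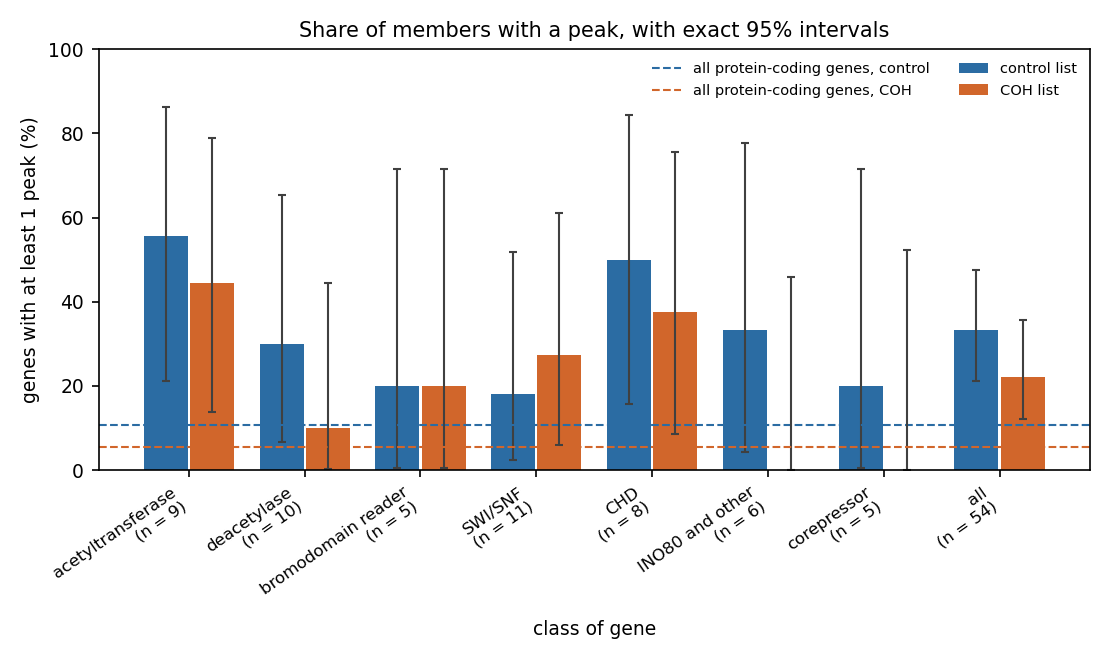
Percentage of members with at least 1 peak in the control list (blue) and the COH list (orange), by class and over all 54 members; bars start at 0, whiskers show the exact 95% interval of each share (counting error alone), and dashed lines give the share of all protein-coding genes (10.8% and 5.38%). Acetyltransferases and CHD remodellers have the highest bars in control, and the intervals of all classes overlap.

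Peaks were most frequent among acetyltransferases and CHD remodellers, but the classes are small and their intervals overlap. In control, peaks were assigned to 5 of 9 acetyltransferases (55.6%, 21.2 to 86.3) and 4 of 8 CHD genes (50%, 15.7 to 84.3). In COH the counts were 4 and 3. Deacetylases had 3 of 10 in control and 1 in COH. SWI/SNF subunits had 2 of 11 in control and 3 in COH. The INO80, ISWI and other remodellers had 2 of 6 in control and 0 in COH, where the interval reaches 45.9%. Bromodomain readers had 1 of 5 in each list, and corepressors 1 of 5 in control and 0 in COH, with an interval up to 52.2%.

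No peak in either list was assigned to 34 members. Among acetyltransferases these were Kat2a, Kat2b, Kat7 and Kat8, and among deacetylases Hdac1, Hdac3, Hdac5, Hdac8, Hdac9, Sirt1 and Sirt6. The bromodomain genes Brd1, Brd3, Brd7 and Brd9 had none. SWI/SNF subunits without a peak were Arid1b, Arid2, Smarcb1, Smarcc1, Smarcc2, Smarcd1, Smarce1 and Pbrm1. Chd1, Chd3, Chd7, Atrx, Bptf, Smarca5, Smarcad1, Ncor1, Sin3b, Mta1 and Mta2 completed this group. Some close relatives differed and others did not. In control Hdac2 had a peak and Hdac1 had none, while in COH neither had one. Ep300 and Crebbp, and likewise Kat6a and Kat6b, all had peaks in both lists.

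Promoter peaks, by the authors' annotation, were found at 11 members in control and 6 in COH, against 6.29% and 2.96% of protein-coding genes. They made up 11 of the 20 control peaks (55.0%) and 6 of the 15 COH peaks (40.0%), where the whole lists had 46.9% and 40.6%. Of the 11 in control, 9 covered the transcription start site (TSS), and of the 6 in COH 4 did, against 83.5% and 75.4% of all promoter peaks. Measured at the summit, the promoter peaks of members lay between -309 and 167 bp from the TSS in control and between -309 and 198 bp in COH. The median absolute distance was 158 bp in control, the same as over all control promoter peaks, and 197 bp in COH against 165 bp. With so few peaks, these values do not set members apart from other promoter peaks.

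**Figure D2:**
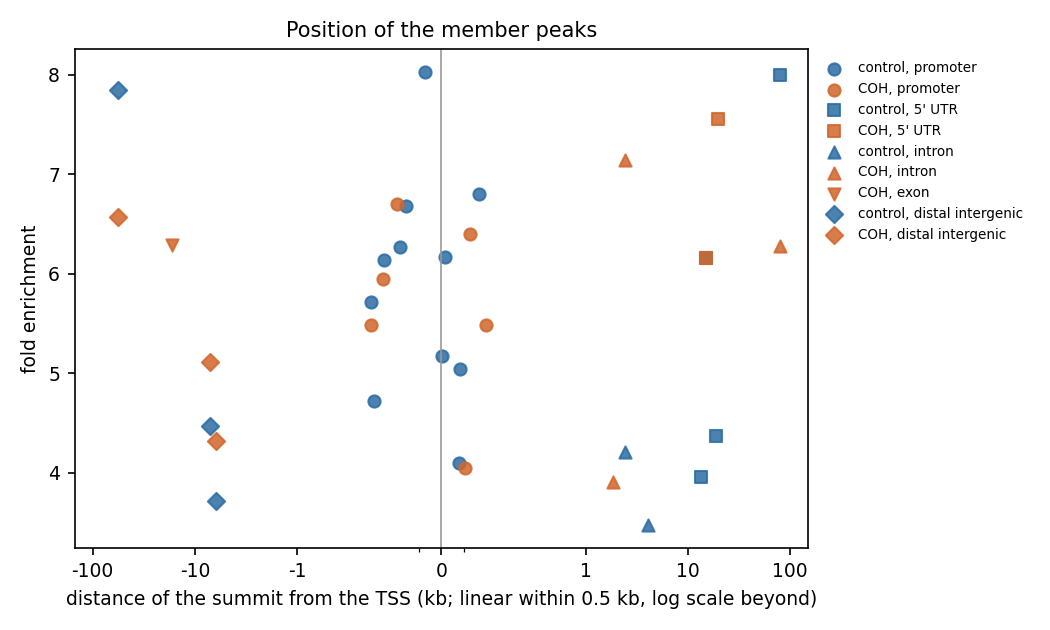
Fold enrichment of each of the 35 member peaks against the distance of its summit from the TSS of the assigned gene in kb (negative values upstream; axis linear within 0.5 kb and logarithmic beyond), with colour for the library and symbol for the annotation class. Promoter summits sit between -309 and 198 bp of the TSS, and the 5' UTR peaks lie more than 10000 bp downstream.

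Ep300 and Crebbp encode p300 and CBP, the paired acetyltransferases that act as coactivators at enhancers and promoters. The control promoter peak of Ep300 (chr15:81469356-81469979, in the coordinates of the lists) reached pileup 31, fold 6.81 and -log10 q 14.4, rank 552 of 3078 by fold. Its COH counterpart (chr15:81469525-81470100) reached pileup 23, fold 6.40 and -log10 q 10.1, rank 521 of 1711. Both covered the TSS, and they shared 455 bp with summits 40 bp apart. For Crebbp the pileup was 20 in each list. The control peak (chr16:4031964-4032326, TSS distance -103 bp) had fold 5.71, -log10 q 7.80 and rank 1109, and the COH peak (chr16:4031940-4032352, TSS distance -79 bp) had fold 6.70, -log10 q 9.40 and rank 427. The control interval lay wholly within the COH interval. Both coactivator genes thus had a peak annotated to the promoter in each list.

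Among the MYST acetyltransferases, Kat6a, which encodes MOZ, had promoter peaks in both lists. In control (chr8:23348644-23349353, TSS distance -198 bp) its pileup was 19, its fold 4.73, its -log10 q 5.70 and its rank 2091. In COH (chr8:23349084-23349806, covering the TSS) these values were 18, 5.49, 6.56 and 832, and the summits were 14 bp apart. Kat6b, its paralogue (MORF), had the widest member peak of each list, in the 5' UTR far inside the gene. The control peak (chr14:21550045-21551265, 18543 bp from the TSS) had pileup 41, fold 4.37, -log10 q 11.2 and rank 2508. The COH peak (chr14:21549805-21551321, at 18303 bp) had pileup 59, fold 7.56, -log10 q 29.6 and rank 285, the highest member fold in that list. They shared 1221 bp, but their summits lay 880 bp apart, the largest gap among the overlapping pairs. Kat5, which encodes TIP60, carried a control promoter peak of pileup 16 and fold 4.10, and the nearest COH peak lay 193075 bp away.

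Among deacetylases, Hdac2 had the highest fold of all member peaks in control and no COH peak. It encodes a class I enzyme of the Sin3, NuRD and CoREST complexes. Its control peak (chr10:36850229-36850976) covered the TSS, with pileup 30, fold 8.03, -log10 q 16.5 and rank 301. The nearest COH peak lay 1797561 bp away. Of the 68 control promoter peaks within 0.5 of this fold, the Hdac2 peak included, 37 (54.4%, 41.9 to 66.5) overlapped a COH peak. Of the 935 control promoter peaks without a COH partner, 15 had a fold at least as high, a count that includes the Hdac2 peak itself. Hdac4, a class IIa enzyme that shuttles between nucleus and cytoplasm, had overlapping 5' UTR peaks. The control peak (chr1:92107951-92108706, 14715 bp from the TSS) had pileup 29, fold 6.16, -log10 q 12.1 and rank 820. The COH peak (chr1:92107638-92108609, at 14812 bp) had pileup 24, fold 6.15, -log10 q 9.99 and rank 576. Hdac7, of the same class, had a control peak of fold 3.95 in its 5' UTR at 13127 bp.

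Brd2, a BET-family reader of acetylated histones, had the highest pileup of any member promoter peak in each list, 42 in control and 38 in COH. Both peaks covered the TSS. The control peak (chr17:34341213-34341668) had fold 5.04, -log10 q 13.9 and rank 1738, and the COH peak (chr17:34340923-34341631) fold 5.48, -log10 q 13.8 and rank 837. These folds were close to the medians of 5.24 and 5.45 over all peaks, so pileup and fold ranked the member promoters differently.

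**Figure D3:**
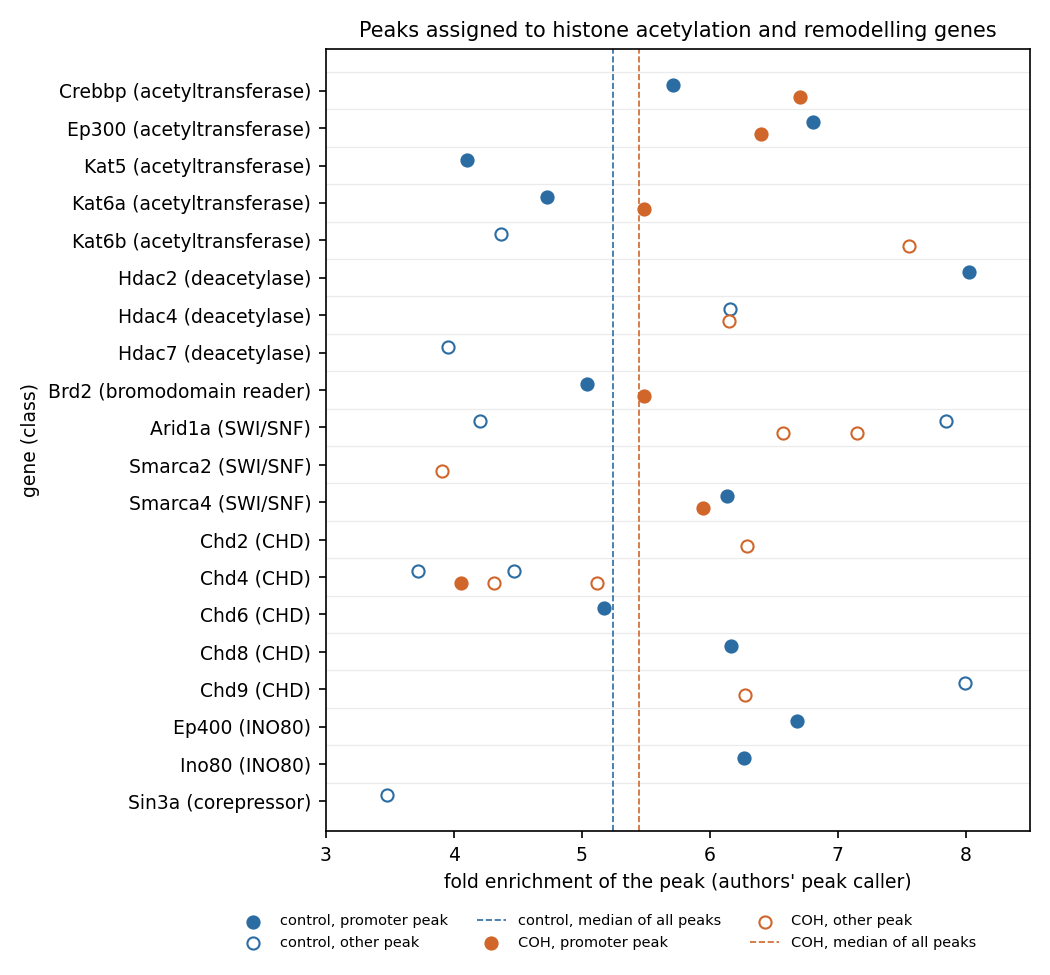
Fold enrichment of every peak assigned to a member, 1 line per gene with its class in brackets; filled circles are promoter peaks and open circles other peaks, blue for control and orange for COH, and dashed lines mark the median fold of all peaks of each list (5.24 and 5.45). Hdac2 and Chd9 have the highest values in control, and Kat6b and Arid1a in COH.

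SWI/SNF complexes hold either of the ATPases encoded by Smarca4 (BRG1) and Smarca2 (BRM), and Arid1a encodes a large subunit of the BAF form. The Smarca4 promoter peak in control (chr9:21527033-21527631, covering the TSS) had pileup 24, fold 6.13, -log10 q 10.1 and rank 833. In COH (chr9:21526993-21527393, TSS distance -72 bp) the values were 16, 5.94, 6.61 and 645, with summits 5 bp apart. Smarca2 had a peak in COH alone, in its first intron at 1504 bp, of pileup 16 and fold 3.91. Arid1a had 2 peaks in each list and none at its promoter. The intronic control peak (chr4:133481408-133481716, at 2364 bp) had pileup 24, fold 4.21, -log10 q 6.04 and rank 2665. Its COH counterpart (chr4:133481448-133482085, at 1995 bp) had pileup 31, fold 7.15, -log10 q 15.0 and rank 345. The distal control peak (chr4:133540623-133541345, at -56543 bp) had pileup 34, fold 7.85, -log10 q 18.1 and rank 326. In COH the distal peak (chr4:133540500-133541371, at -56420 bp) had pileup 24, fold 6.57, -log10 q 10.8 and rank 473. The distal site thus had the higher fold in control and the intronic site in COH, with 1 library behind each order.

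Chd4, the ATPase of the NuRD complex, had the most peaks of any member, 2 in control and 3 in COH. In each list a pair of intergenic peaks lay upstream of the TSS. In control the farther (chr6:125065611-125065978, at -6966 bp) had pileup 26, fold 4.47, -log10 q 7.20 and rank 2398, and the nearer (chr6:125066351-125066818, at -6126 bp) 22, 3.72, 4.47 and 2955. In COH the farther (chr6:125065682-125066250, at -6694 bp) had pileup 23, fold 5.11, -log10 q 7.53 and rank 1027, and the nearer (chr6:125066582-125066998, at -5946 bp) 20, 4.32, 5.01 and 1462. Each overlapped its counterpart in the other list. The further COH peak was at the promoter (chr6:125072717-125073224, covering the TSS), with pileup 19, fold 4.05, -log10 q 4.24 and rank 1576, and the nearest control peak lay 5899 bp away. Of the 114 COH promoter peaks within 0.5 of that fold, the Chd4 peak included, 57 (50%, 40.5 to 59.5) had a control partner.

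Chd9 had overlapping peaks far inside the gene, with summits at the same base, 80013 bp downstream of the TSS. The control peak (chr8:91634604-91635642, annotated to the 5' UTR, its edge at 79624 bp) had pileup 40, fold 7.99, -log10 q 21.4 and rank 303. The COH peak (chr8:91634830-91635158, annotated to intron 2 of 39, at 79850 bp) had pileup 20, fold 6.27, -log10 q 8.65 and rank 550. The same summit was thus filed under different classes in the lists. Chd6 (fold 5.18) and Chd8 (fold 6.17), whose human counterpart is an autism gene, had control promoter peaks with pileups of 17 and 15. Chd2 had 1 peak, in COH (chr7:73208138-73208458, at -16560 bp), with pileup 16, fold 6.29, -log10 q 7.16 and rank 546. It lay in exon 1 of Chaserr, a long non-coding RNA gene next to Chd2 that is known to restrain Chd2 expression.

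Among the 6 members classed as INO80, ISWI and other remodellers, peaks were found in control alone. Of the 29 further genes of this class, 3 had a COH peak. Ino80, the ATPase of the complex of that name, had a promoter peak (chr2:119307713-119308787) of pileup 20 and fold 6.27. Ep400, the ATPase of the TIP60 complex, had one covering the TSS (chr5:110918561-110918917), with pileup 31, fold 6.68, -log10 q 14.1 and rank 582. The nearest COH peaks lay 394560 and 238923 bp away. Of control promoter peaks within 0.5 of those folds, these peaks included, 42.3% and 44.2% had a COH partner. A missing partner was thus the more frequent outcome at that strength. Sin3a, the scaffold of the Sin3 deacetylase complex, was the sole 1 of the 5 member corepressors with a peak. It was intronic (chr9:56983171-56983583, 3847 bp from the TSS), with pileup 24, fold 3.47, -log10 q 4.33 and rank 3009, the lowest fold of all member peaks.

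By class, the median fold of promoter peaks in control was 5.22 for acetyltransferases (4 peaks), 5.67 for CHD genes (2) and 6.48 for the INO80 group (2). The single promoter peaks of the deacetylases, the SWI/SNF subunits and the bromodomain readers had folds of 8.03, 6.13 and 5.04. In COH the median was 6.40 for acetyltransferases (3 peaks), with single peaks of 5.94 for SWI/SNF, 5.48 for bromodomain readers and 4.05 for CHD genes. The 5 member corepressors had no promoter peak in either list. Over all member peaks the fold ranged from 3.47 through a median of 5.44 to 8.03 in control and from 3.91 through 6.15 to 7.56 in COH. The whole lists ranged up to 32.5 and 32.6, and the best ranks of member peaks by fold were 301 in control and 285 in COH. Above the median of the list were 10 of 20 control and 11 of 15 COH member peaks.

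Most member peaks of the shorter list overlapped a peak of the longer one. Of the 20 control member peaks 12 overlapped a COH peak by at least 1 bp (60.0%, 36.1 to 80.9), against 34.3% of all control peaks, and of the 15 COH member peaks 12 overlapped a control peak (80.0%, 51.9 to 95.7), against 61.8%. At promoters the counts were 5 of 11 in control, against 35.3% of all control promoter peaks, and 5 of 6 in COH, against 70.7%. The 12 pairs had summits 0 to 880 bp apart with a median of 40 bp, and 9 (75%) were within 100 bp, where all 1060 pairs of the series had a median of 71 bp and 58.9% within 100 bp. The COH pileup was lower in 9 pairs, higher in 2 (Kat6b and the Arid1a intron) and equal in 1. Over all pairs it was lower in 743, higher in 259 and equal in 58, so a lower COH pileup was general. The fold was higher in COH in 7 member pairs and lower in 5 (58.3% higher), while over all 1060 pairs it was higher in 489 and lower in 571 (46.1% higher). Among control promoter peaks, the 6 of members without a partner had a median fold of 6.22 and the 5 with one 5.71, while over all control promoter peaks those without a partner had 5.05 and those with one 5.73.

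**Figure D4:**
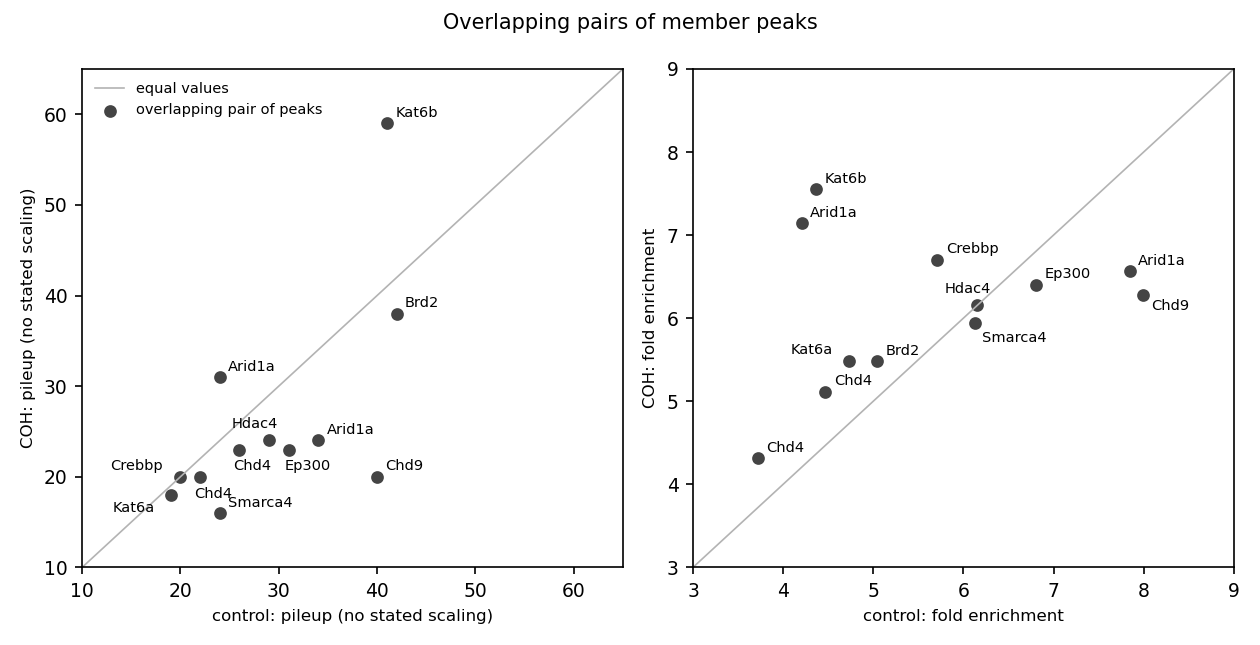
The 12 overlapping pairs of member peaks, with the control value on the horizontal and the COH value on the vertical axis, for pileup (left, no stated scaling) and fold enrichment (right); each point is a pair, and the grey line marks equal values. For pileup 9 pairs lie below the line, and Kat6b and an Arid1a pair lie above it.

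Outside promoters there were 18 member peaks at 9 genes. The 6 intergenic ones, at Arid1a and Chd4, are tied to these genes by the authors' annotation alone. Whether they concern the named gene was not tested. All 6 peaks annotated to a 5' UTR (Kat6b and Hdac4 in both lists, Hdac7 and Chd9 in control) lay more than 10000 bp downstream of the TSS used for their gene. Of all 5' UTR peaks, 12.7% in control and 13.6% in COH lay that far. RefSeq lists more than 1 start for some of these genes, in its own build: 4 for Hdac7, of which 2 lie 12735 and 13007 bp downstream of the first. The Hdac7 peak was 13127 bp from the TSS of the lists. For Arid1a the second RefSeq start lies 2784 bp downstream, beside intronic peaks at 2364 and 1995 bp, and for Sin3a 4336 bp downstream, beside a peak at 3847 bp. The other genes with far 5' UTR peaks had no such start. The second Chd9 start, 103414 bp downstream, was not near its peak at 79624 bp, the second Kat6b start lies 15 bp from the first, with peaks at 18543 and 18303 bp, and Hdac4 has 1 start in the table, with peaks at 14715 and 14812 bp. Since the builds differ, whether a peak lies on any of these starts was not determined.

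Member promoters were rich in CpG whether or not they had a peak. A promoter was the RefSeq window from 250 bases before to 50 after the first start of a gene, found for 45 of 54 members and 17492 protein-coding genes. The median GC content was 66.0% for members and 56.3% for all, and the median ratio of observed to expected CpG was 0.88 and 0.58. Of the 20 members with a peak in either list, 18 had a window, and Kat6a and Chd2 did not. These 18 had a median CpG ratio of 0.81. The 27 members with a window and no peak had 0.95, with ranges that overlapped (0.28 to 1.02 and 0 to 1.13). Genes with a control promoter peak had a median of 0.85. That set is defined otherwise, since some of the 18 members, such as Arid1a and Hdac4, had peaks only outside promoters. In the upper 2 of 5 equal groups of genes by CpG ratio, control peaks were assigned to 18.7% of genes (17.7 to 19.6) and COH peaks to 8.66% (8.01 to 9.34). Of the 35 members in those groups, 15 had a control peak (42.9%, 26.3 to 60.6) and 9 a COH peak (25.7%, 12.5 to 43.3).

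**Figure D5:**
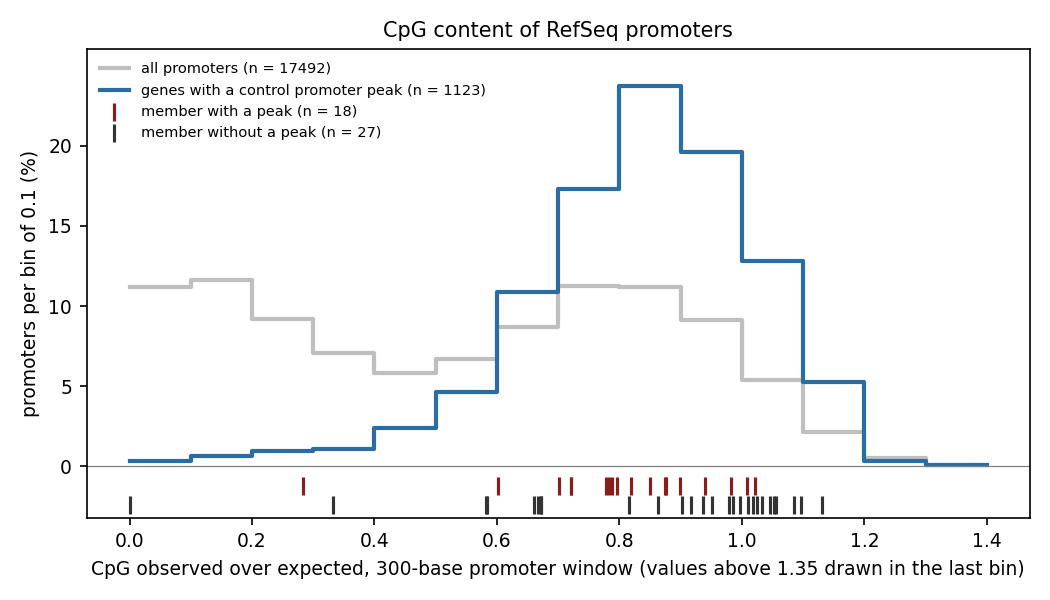
Distribution of the observed over expected CpG ratio in 300-base RefSeq promoter windows, as percent of promoters per bin of 0.1. Grey shows all protein-coding genes and blue those with a control promoter peak. Each of the 45 members with such a window is a tick below (red for the 18 with a peak, black for the 27 without). Most members lie with the CpG-rich promoters, with medians of 0.81 and 0.95 for members with and without a peak.

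Of 10 motifs searched on both strands in these windows, the GC box was the most frequent. It was in 15 of the 18 members with a peak and a window, and in 19 of the 27 with a window and no peak. The shares were 46.3% of all promoters and 80.7% of those with a control promoter peak. The NRF1 core was in 2 of 18 and 4 of 27, against 3.61% and 6.77%, and the ETS motif CCGGAAG in 4 of 18 and 7 of 27, against 11.9% and 16.3%. For each motif the first share is of all promoters and the second of those with a control promoter peak. The 18 members are not matched to the second set, since some had peaks only outside promoters. TGACG, part of the CREB motif, was in 5 and 13, against 23.8% and 38.7%, and the E-box CACGTG in 1 and 4, against 7.91% and 10.4%. The CCAAT box, searched as ATTGG, was in 7 and 6, against 39.2% and 44.7%. The TATA box TATAAA was in 0 of 18 and 3 of 27, against 13.3% and 3.65%. The full CREB site TGACGTCA, which contains TGACG, was in none of the 45, against 2.33% and 3.83%. The YY1 core AAGATGGC was in 0 and 3, against 3.21% and 4.36%, and TCTCGCGA, the core of a palindrome of housekeeping promoters, in 0 and 1, against 1.53% and 3.03%.

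Another 157 genes of the same complexes, listed by family, included 36 in the control list (22.9%, 16.6 to 30.3). In the COH list there were 20 (12.7%, 7.96 to 19.0), and 16 had both. Among all protein-coding genes the shares were 10.8% in control, 5.38% in COH and 3.53% in both, which also serve each family below. Promoter peaks were found at 25 and 11 of the 157 genes, against 6.29% and 2.96% of protein-coding genes. Subunits of acetyltransferase complexes had 11 of 39 in control and 7 in COH, all 7 with a control peak too. Among them the NuA4 subunit Mbtd1 had a COH promoter peak of fold 9.47, the highest of these genes, and Ing5, a reader in MYST complexes, had promoter peaks of fold 7.09 in control and 6.52 in COH. Trrap, the scaffold of NuA4 and SAGA, had a control peak of fold 6.75, and Phf20 one of 8.67. Further bromodomain and reader genes had 6 of 25 and 4, led by Phip (6.00 in control and 8.95 in COH), Yeats4 (6.96, control) and Brpf3 (6.18 and 6.66). Further corepressor genes had 10 of 27 and 5. They included Ing2 of the Sin3 complex (5.73 and 5.75), Gatad2a of NuRD (5.33, control), and Mbd3 (5.67) and Mbd2 (5.40) in COH. Mbd3, Mbtd1 and Phf20 each had a peak in the other list too. Further remodellers had 6 of 29 and 3, with Smarca1, the ISWI ATPase of neurons, at 9.38 in control and 8.74 in COH through an intronic site, and Srcap at 5.97 and 4.55. Further SWI/SNF subunits had 2 of 17 in control (Actl6a and Phf10, 11.8%) and 1 in COH (Smarcd2, 5.88%), close to the shares over all protein-coding genes. Further acetyltransferases had 1 of 10 in control (Ncoa2) and 0 in COH, and the 8 further deacetylases and 2 further CHD genes had 0 in both lists.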

How the data were processed

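Nuclei of retinas were profiled by CUT&Tag, with 15 cycles of PCR per the labels' protocols. The submitters' processing notes name cutadapt 1.9.1, Bowtie2 and the build mm9, with no role or order. Nothing on the peak caller, its settings, a background library or duplicates is given in the sources used here. The authors deposited 1 signal (a pileup), 1 fold (a ratio to background), a -log10 p and a -log10 q for every peak. The headings of the last 2 columns held a spreadsheet error and were read from their place and values. Positions (as deposited), distances and other values, and the annotation class, are the authors', per the file headers. Each library has a list of its own.

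Peaks were joined to genes by the authors' gene name. The 54 members and 157 further genes all matched a RefSeq symbol. RefSeq coordinates of GRCm38.p6 were not joined to the lists: gene starts lay within 100 bp for 81 of 3175 genes and 0 of 20 members, so the build of the lists is unsettled. Overlap meant at least 1 bp. Shares have exact Clopper-Pearson 95% intervals over genes or peaks. They cover counting error only: genes or peaks are counted as if independent, the gene lists were fixed by name, and each condition has 1 library. Whether PCR copies were marked by molecular identifiers is not stated. Overlap counting was tested on simulated data. Python 3.11.15, pandas 2.3.3 and scipy 1.17.1 were used.

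With 1 library per group no test between conditions was made. The members, classes and lists were chosen with earlier results of these data known. Every member is named. Full values go to members in both lists, the strongest of each class and those with several peaks. Further genes are named up to 3 per class by fold. Alternatives were a fold above the list's median, equal numbers of peaks, a -log10 q of at least 5, synonyms, distance limits, a 50% reciprocal overlap, a 1000 bp gap and a shorter promoter window.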

Additional observations from a re-analysis of the deposited data

How the results depend on the processing

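No paired analysis was possible because each condition has 1 library, and for the same reason no replicate could be left out. Of 72 alternative values for 23 results, 58 stayed within 1.5 times a count or within the 95% interval of a share or median, and 14 moved. Of the 58, 15 used the very same peaks by construction and show nothing about stability, which leaves 43. In those 15, member promoter peaks all lie within 1000 bp of the TSS, or the shorter list is not cut. The 43 hold repeats. Synonyms changed no count, and for the median fold the promoter and 1000 bp settings used the same member peaks. The intervals are also wide: with reciprocal overlap the share of COH member peaks with a partner went from 80% to 60% and counted as unchanged (51.9 to 95.7). The 43 are thus no measure of stability. With peaks above the median fold, 10 members had a control peak, 6 had both, and 7 had a control promoter peak; the further genes of these complexes fell to 22 in control and 12 in COH. The matching shares of protein-coding genes were 5.27% in control and 2.63% in COH. With equal numbers of peaks, 11 members had a control peak, 12 a COH peak and 6 both, against 5.87% of protein-coding genes in control and 5.38% in COH. With peaks within 1000 bp of the TSS, 11 members had a control peak, 6 a COH peak and 5 both, against 8.36% and 3.80% of protein-coding genes. A -log10 q of at least 5 left 13 further genes in COH, against 3.18% of protein-coding genes. The share of COH member peaks with a partner was 40.0% when the control list was limited to peaks above its median fold. The median pileup of member peaks, in place of fold, was 24 in control and 20 in COH, a different unit. Apart from that change of unit, those settings leave fewer peaks by construction. Read depth, which limits what the caller could find in either library, is unknown.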
